A study of Mus musculus with 48 samples.

Results

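The genes described are the 79 protein-coding genes that encode subunits of ionotropic neurotransmitter receptors, or G-protein-coupled receptors for serotonin, among the 53465 genes counted in NeuroD1-positive cells of the mouse gut. The rule that picks them reads only their symbols, though it was set with earlier results of these data known. They comprised 2 subunits of the serotonin 5-HT3 receptor, 19 of GABA-A receptors, 7 of P2X receptors, 5 of glycine receptors, 18 of ionotropic glutamate receptors, 16 of nicotinic acetylcholine receptors and 12 serotonin receptors coupled to G proteins. RNA was sequenced from NeuroD1/EYFP-positive, CD45-negative cells purified by flow cytometry from adult male NeuroD1-Cre-EYFP mice on a C57BL6 background, in which Cre under the control of Neurod1 switches on the fluorescent protein EYFP. All groups carried both transgenes. The 48 libraries came from 17 mice in 3 surgery groups: vertical sleeve gastrectomy (VSG), which removes most of the stomach (6 mice), sham surgery with food ad libitum (S_al, 6 mice), and sham surgery with food restricted to match the body weight of VSG mice (S_wm, 5 mice). All mice were fasted overnight and given glucose by gavage before tissue was taken. Each of 3 regions, the top 5 cm of the small intestine (duodenum), its bottom 15 cm (ileum) and the colon with rectum (colon), had 5 S_al, 5 S_wm and 6 VSG libraries, and 15 mice had a library from every region. Libraries held 4648651 to 17182463 counts.

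Enteroendocrine cells are scattered hormone-releasing cells of the gut epithelium, and transcription of Neurod1 marks them and their late precursors. Ionotropic receptors are ion channels opened by a transmitter: nicotinic, GABA-A, glycine and 5-HT3 receptors are built from related subunits of the Cys-loop family, glutamate receptors from AMPA, kainate, delta and NMDA subunits, and P2X receptors from subunits that bind extracellular ATP. A functional channel needs several subunits, some of which cannot form a channel on their own, so that the combination present in a cell matters as much as each subunit. Most serotonin of the body is made by one type of enteroendocrine cell, the enterochromaffin cell, and serotonin receptors other than 5-HT3 signal through G proteins.

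Levels are given as CPM, the count of a gene scaled to the size of its library after TMM normalization, as mean ± SD over the 16 libraries of a region. A region contrast is the mean over the 3 surgery groups of the log2 difference between regions from edgeR's quasi-likelihood fit, given ± SE, with p adjusted by the Benjamini-Hochberg method over the 15126 genes that passed the filter on low counts, and with 0.05 as the threshold for a call. Since sorted cells of several types were pooled in a library, fewer cells that express a gene and less RNA per cell cannot be told apart. The sequences upstream of 5 of the genes are shown first because these genes separate the regions (they were picked after their levels were seen): P2rx4 and P2rx7, ATP-gated channels that lie side by side on chromosome 5 and were both highest in the colon, Gabrq, a GABA-A subunit counted almost only in the colon, Grik3, a kainate receptor subunit low in the duodenum, and Gabra2, a GABA-A subunit high in the duodenum. Each line holds the 200 bases before the RefSeq start of the gene on GRCm38.p6, 5′ to 3′ on the strand of the gene, and capitals mark the letters of a motif on either strand.
P2rx7 (chr5:122643727-122643926, plus strand): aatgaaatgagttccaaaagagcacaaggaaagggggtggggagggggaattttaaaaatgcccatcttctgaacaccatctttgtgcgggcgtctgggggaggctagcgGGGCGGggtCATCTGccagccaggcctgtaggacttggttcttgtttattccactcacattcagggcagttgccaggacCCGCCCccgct
P2rx4 (chr5:122707344-122707543, plus strand): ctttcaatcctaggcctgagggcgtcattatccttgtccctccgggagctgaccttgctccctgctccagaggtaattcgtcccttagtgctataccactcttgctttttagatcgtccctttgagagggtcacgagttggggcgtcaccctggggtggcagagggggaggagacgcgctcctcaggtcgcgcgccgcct
Gabrq (chrX:72824978-72825177, plus strand): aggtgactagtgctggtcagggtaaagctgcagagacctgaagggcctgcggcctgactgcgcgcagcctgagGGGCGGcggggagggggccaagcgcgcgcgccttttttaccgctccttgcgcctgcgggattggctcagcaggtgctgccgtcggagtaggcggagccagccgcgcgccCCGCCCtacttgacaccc
Grik3 (chr4:125490496-125490695, plus strand): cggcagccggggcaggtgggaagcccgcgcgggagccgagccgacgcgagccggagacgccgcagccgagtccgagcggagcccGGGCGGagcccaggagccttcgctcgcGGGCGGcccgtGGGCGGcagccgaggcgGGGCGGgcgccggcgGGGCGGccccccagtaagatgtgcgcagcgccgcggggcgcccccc
Gabra2 (chr5:71095850-71096049, minus strand): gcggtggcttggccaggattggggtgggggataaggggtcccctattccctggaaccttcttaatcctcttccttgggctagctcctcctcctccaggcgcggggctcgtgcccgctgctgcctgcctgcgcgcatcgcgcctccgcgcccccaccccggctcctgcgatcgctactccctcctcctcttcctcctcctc
The motifs searched, on both strands of the 250 bases before a start, were the E-box CAGATG bound by NEUROD1, AGATAA of GATA factors, TTTATNG of CDX and posterior HOX factors, the left part of the RE1 element TCAGCACC, the GC box GGGCGG, the TATA box TATAAA and the cAMP response element TGACGTCA. In the shown windows, P2rx7 held GC boxes that began 90 and 11 bases before the start and a CAGATG match 81 bases before it, Gabrq held 2 GC boxes, Grik3 held 5 GC boxes between 116 and 46 bases before its start, and P2rx4 and Gabra2 held none of the 7 motifs, although Gabra2 was among the genes with a GC box in the 250 bases searched. A further RefSeq start of P2rx7, inside the gene, is not shown. Of the 79 genes, 56 matched the RefSeq table, with 64 starts. The E-box was found before 5 of these 64 starts and 14.4% of all 32851 starts in the table, the GATA letters before 9 and 9.99%, the CDX and HOX letters before 2 and 9.81%, the RE1 letters before 1 and 1.32%, the GC box before 26 and 32.7%, the TATA box before 7 and 12.4%, and the cAMP response element before 0 and 1.55%. These matches describe letters and not bound sites.

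One library stood apart. In the duodenum of S_wm mouse 27, the 9 enteroendocrine markers summed to 11650 CPM, against 36970 to 73220 CPM in the other 15 duodenum libraries, whereas 6 enterocyte markers summed to 34180 CPM (4247 to 11770 in the others) and 9 leukocyte markers to 2010 CPM (28.9 to 667 in the others). Of the 30 receptor genes tested, this library was the lowest duodenum library for 10 (among them Gabra2, Gabrd, Gabre, Grik3, Grik4, Grik5, Grin2b, Chrnb2 and Chrnb4) and the highest for 3 (P2rx4, P2rx7 and Grin2d). The share of all tested genes for which it was lowest or highest is not reported here, so this is no trait of the receptor genes. For the ileum and colon libraries of S_al mouse 12, the tissue label and another label disagree about the region, and the former was followed.

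Few of the 79 genes were measured at more than a trace. In the duodenum 19 genes had a mean of at least 1 CPM, in the ileum 21 and in the colon 21, and 14 genes did so in all 3 regions. A mean of 5 CPM was reached by 11, 6 and 11 genes, respectively. In all, 50 genes stayed under 1 CPM in every region, 13 of the 79 had a count in each of the 48 libraries, and 6 had 10 or fewer counts in all libraries together. Levels per kilobase were taken over all annotated exons of a gene together, which can be longer than the transcript expressed. They allow only a rough comparison of genes of unequal length. On this scale, the summed level of all 79 genes was 27.2 CPM per kb in the duodenum, 27.7 CPM per kb in the ileum and 39.5 CPM per kb in the colon. Glutamate receptor subunits made up 9.75, 10.6 and 11.7 CPM per kb of these sums and P2X subunits 4.35, 3.28 and 12.1. Nicotinic subunits made up 5.62, 7.28 and 5.99 CPM per kb, GABA-A subunits 4.86, 4.41 and 4.23, serotonin receptors coupled to G proteins 2.60, 1.97 and 4.01, 5-HT3 subunits 0, 0.0306 and 1.36, and glycine receptor subunits 0.0687, 0.0954 and 0.137. The first place per kilobase fell to Grik5 in the duodenum (4.55 CPM per kb, 16.7% of the sum), to Grik3 in the ileum (3.90 CPM per kb, 14.1%) and to P2rx4 in the colon (10.6 CPM per kb, 26.7%).

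**Figure D1:**
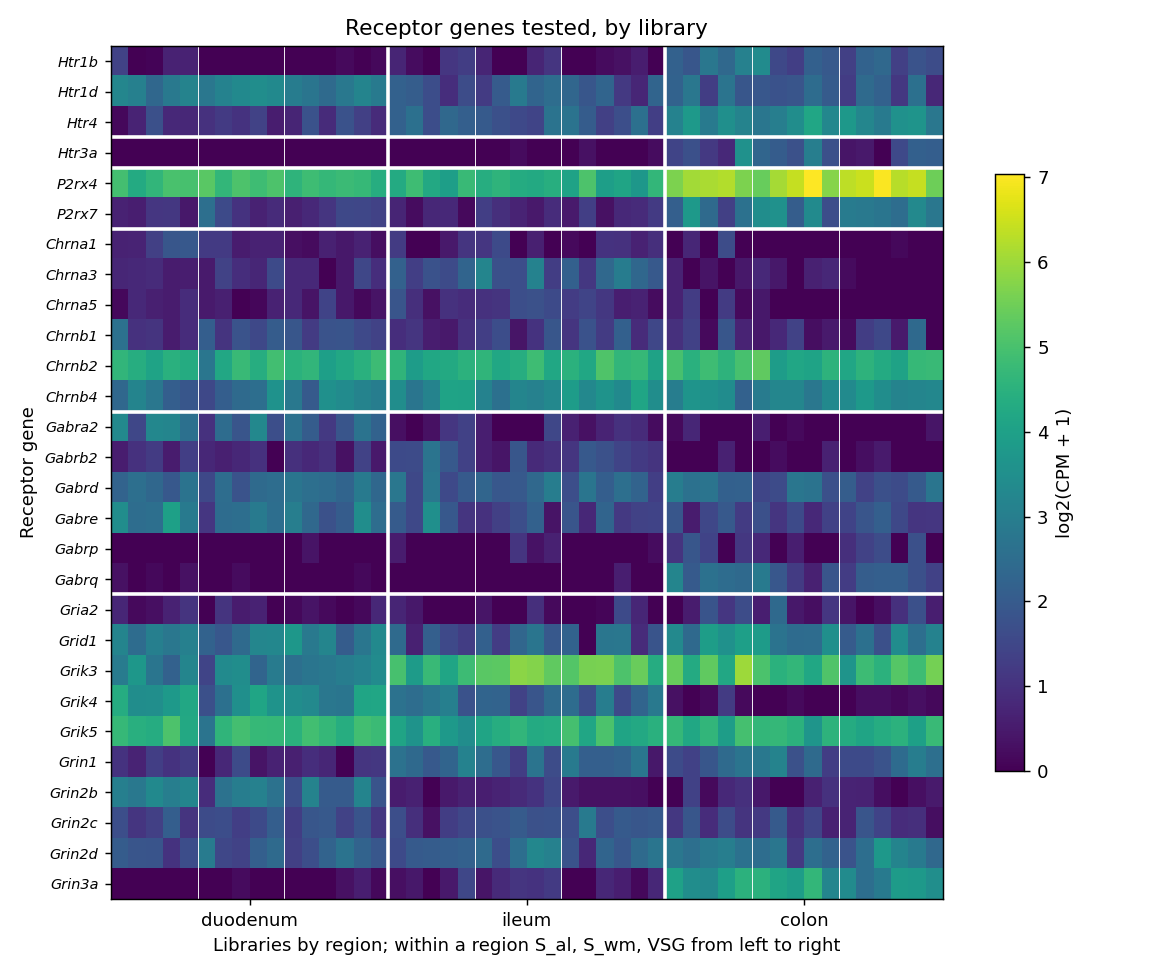
Level of 28 of the 30 tested receptor genes (rows, by family) in the 48 libraries (columns, by region and within a region by S_al, S_wm and VSG), with log2(CPM + 1) on the color scale. Colon columns stand out for P2rx4, P2rx7, Grin3a, Gabrq, Htr3a, Htr1b and Htr4, and duodenum columns for Grik4, Grin2b and Gabra2.

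Of the 79 genes, 30 passed the filter on low counts and were tested. Colon and duodenum differed in 25 of these, 14 higher and 11 lower in the colon, against 55% of all tested genes (26.8% higher and 28.3% lower). Ileum and duodenum differed in 18, 10 higher and 8 lower in the ileum, against 33.8% of all genes (17.2% higher and 16.6% lower), and colon and ileum in 18, 10 higher and 8 lower in the colon, against 49.2% (23.8% higher and 25.4% lower). The median log2 difference of the 30 genes was 0.21, -0.05 and -0.03 in these contrasts and that of all genes -0.01, 0.00 and -0.01. At least 1 region contrast was called for 27 genes, all 3 contrasts for 10 (among them Chrna3, Chrna5, Gabra2, Gabrb2, Grik4, Grin3a, Htr1b, Htr4 and P2rx4) and none for 3 (Chrnb2, Gabrd and Grik5). The shares of all tested genes with any, all or none of the contrasts called are not reported here. These 3 counts therefore show nothing particular to the receptor genes. Without the duodenum library of mouse 27, 25, 22 and 21 receptor genes were called in colon versus duodenum, ileum versus duodenum and colon versus ileum, and without the ileum and colon libraries of mouse 12 they were 25, 20 and 20. Among the differences given below with their values, omission of the first library lost that of Gria2 between colon and duodenum, and omission of the others lost that of Grin2c between colon and ileum. The filter removed 49 genes, of which 44 had under 0.5 CPM in every region. Without the filter, 15 of the 49 were called in at least 1 region contrast, 11 of them under 0.5 CPM: 8 genes in ileum versus duodenum, 6 in colon versus duodenum and 9 in colon versus ileum. Shares of all genes called without the filter, or without the libraries named above, are not reported here. Chrna2, a nicotinic subunit, was one of the 15 genes, with 64 counts in the duodenum and 2 in the colon, a pooled level 24.5-fold that of the colon (95% counting interval, from the lower count alone, 6.79 to 202.5, adjusted p without the filter = 3.77e-05 by edgeR). The highest level among the 49 was that of Grin2a, a glutamate-binding NMDA subunit, at 1.13 CPM in the ileum.

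Of the 4 tested serotonin receptors, 3 (Htr3a, Htr4 and Htr1b) were highest in the colon. Htr3a encodes the subunit without which the 5-HT3 channel does not form. It had no count in any of the 16 duodenum libraries and 3 counts in the ileum, 1 in each of 3 libraries, whereas 315 counts in 15 of 16 colon libraries gave a lowest, median and highest level of 0, 2.29 and 10.9 CPM. The pooled colon level was at least 137-fold higher than the level of 3 counts over the duodenum libraries (adjusted p = 3.339e-10, edgeR) and 103-fold that of the ileum (95% counting interval 35.4 to 501.4, adjusted p = 7.983e-09). The partner subunit Htr3b had 3 counts in all libraries together. The library titles carry an index code that partly followed region, and with this code as a covariate the call for Htr3a against the duodenum was lost (adjusted p = 1) while that against the ileum was kept (adjusted p = 3.561e-06). Where other calls of receptor genes given below were lost in this fit, or in a fit within 1 index code, this stands beside them. The limits of these fits are given with the index codes below.

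Htr4, which raises cAMP through stimulatory G proteins, was lowest in the duodenum and highest in the colon. Its lowest, median and highest levels were 0.117, 0.922 and 2.40 CPM in the duodenum, 1.46, 3.07 and 5.44 CPM in the ileum and 5.80, 8.46 and 16.9 CPM in the colon, and every colon library was above every library of the other regions. The log2 difference was 1.48 ± 0.26 from duodenum to ileum (adjusted p = 8.975e-06), 1.52 ± 0.24 from ileum to colon (adjusted p = 4.549e-07) and 3.00 ± 0.25 from duodenum to colon (adjusted p = 2.296e-14). The first of these calls was lost with the index code as a covariate (1.28, adjusted p = 0.122) and within code D501 (1.66, adjusted p = 0.1161). Htr1b, which lowers cAMP through inhibitory G proteins, had no count in 10 duodenum and 6 ileum libraries but between 1.48 and 9.59 CPM in the colon, with a median of 3.17 CPM. Its pooled colon level was 19.8-fold that of the duodenum (95% counting interval 13.5 to 30.3, adjusted p = 5.114e-11) and 8.28-fold that of the ileum (6.22 to 11.3, adjusted p = 2.045e-07). No ileum library, at most 1.41 CPM, reached the lowest colon library. Exons of Htr1b overlap those of the antisense gene D430036J16Rik, and without knowledge of the strand setting its counts are uncertain to that degree.

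Htr1d, a close relative of Htr1b that also couples to inhibitory G proteins, had the opposite pattern. Its lowest, median and highest levels were 4.12, 7.12 and 9.99 CPM in the duodenum, 0.698, 3.13 and 6.41 CPM in the ileum and 0.728, 2.90 and 5.89 CPM in the colon. It was lower in both distal regions, by a log2 difference of -1.27 ± 0.24 in the ileum (adjusted p = 2.818e-05) and -1.18 ± 0.23 in the colon (adjusted p = 3.105e-05), while ileum and colon differed by 0.09 ± 0.25 (adjusted p = 0.7878). Both calls were lost with the index code as a covariate (-0.94 in the ileum, adjusted p = 0.1914, and -0.66 in the colon, adjusted p = 0.4136), and that of the ileum also within code D501 (-1.04, adjusted p = 0.07002). The highest level among the 9 other serotonin receptors coupled to G proteins was 0.352 CPM, that of Htr2c in the ileum. The remaining 8 were Htr1a, Htr1f, Htr2a, Htr2b, Htr5a, Htr5b, Htr6 and Htr7.

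Of the P2X receptors, only P2rx4 and P2rx7 were tested. P2rx4, a cation channel highly permeable to calcium, was present in every library at 18.6, 27.3 and 37.0 CPM (lowest, median and highest) in the duodenum, 12.3, 18.9 and 33.0 CPM in the ileum and 41.5, 72.0 and 131 CPM in the colon. The lowest colon library was above the highest library of the other regions, and the colon exceeded the duodenum by 1.41 ± 0.13 (adjusted p = 9.584e-13) and the ileum by 1.86 ± 0.13 on the log2 scale (adjusted p = 4.779e-16). P2rx7, which opens at high concentrations of ATP, had 0.365, 1.07 and 4.91 CPM in the duodenum, 0.141, 0.731 and 1.48 CPM in the ileum and 1.54, 5.80 and 12.9 CPM in the colon, which made the colon higher than the duodenum by 2.33 ± 0.29 (adjusted p = 3.992e-09) and than the ileum by 3.15 ± 0.33 (adjusted p = 1.505e-11). Its highest duodenum value was that of S_wm mouse 27, and the next was 2.01 CPM.

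The genes are 16111 bases apart on chromosome 5 of GRCm38 (P2rx7 at 122643911 to 122691432 and P2rx4 at 122707544 to 122729738, both on the plus strand). P2rx7 is also used by leukocytes, for which 9 marker genes summed to 28.9 to 2010 CPM in the duodenum, 164 to 1364 CPM in the ileum and 4.54 to 365 CPM in the colon. Most of this sum was Cd74, and the pan-leukocyte gene Ptprc averaged 2.45, 1.72 and 3.15 CPM, with the highest mean in the colon as for P2rx7. The part of leukocytes in the P2rx7 level was not tested. The other P2X subunits, P2rx1, P2rx2, P2rx3, P2rx5 and P2rx6, reached at most 0.553 CPM (P2rx6 in the colon).

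**Figure D2:**
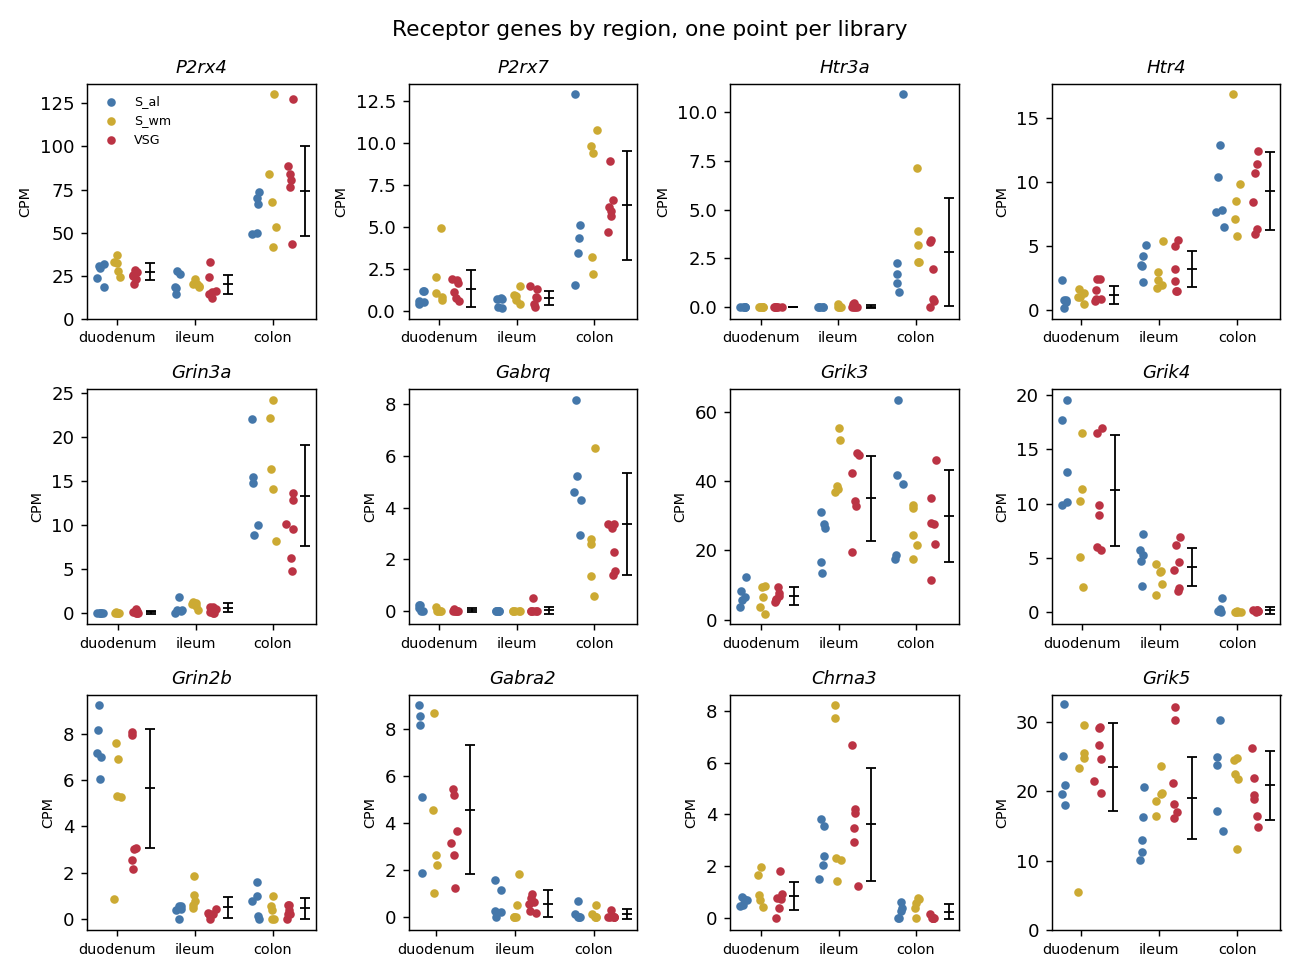
Level of 12 receptor genes in CPM, with 1 point for each of the 48 libraries, by region and with surgery groups by color, and with a black mark and bar for the mean ± SD of the region. Every colon library lies above every duodenum library for P2rx4, Grin3a, Gabrq and Htr4, and below it for Grik4 and Gabra2.

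Among glutamate receptors, the kainate subunits Grik3 and Grik4 differed between regions in opposite directions. Grik5, a kainate subunit that needs a partner to form a channel, was at 23.5 ± 6.31 CPM in the duodenum, 19.02 ± 5.97 CPM in the ileum and 20.9 ± 5.03 CPM in the colon, and no contrast was called (adjusted p from 0.06899 to 0.3916). Grik4, which likewise needs a partner, had 2.31, 10.2 and 19.6 CPM (lowest, median and highest) in the duodenum, 1.60, 4.12 and 7.16 CPM in the ileum and 0, 0.116 and 1.34 CPM in the colon. It was lower in the ileum than in the duodenum by -1.42 ± 0.23 (adjusted p = 3.97e-06) and lower again in the colon by -4.95 ± 0.64 against the ileum (adjusted p = 1.271e-15), with no overlap between the colon and either other region. The call between ileum and duodenum was lost with the index code as a covariate (-0.69, adjusted p = 0.3999) and within code D501 (-1.22, adjusted p = 0.1135).

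Grik3 forms channels by itself and joins Grik4 and Grik5 in mixed ones. It had 1.73, 6.56 and 12.3 CPM in the duodenum, against 13.5, 35.6 and 55.2 CPM in the ileum and 11.4, 27.7 and 63.4 CPM in the colon. All 16 ileum libraries were above all duodenum libraries. The log2 difference from the duodenum was 2.31 ± 0.20 in the ileum (adjusted p = 1.227e-12) and 2.15 ± 0.20 in the colon (adjusted p = 1.489e-12), and the distal regions differed by -0.17 ± 0.19 (adjusted p = 0.4947). The other subunits able to form kainate channels alone, Grik1 and Grik2, stayed under 1 CPM, with 0.821 CPM for Grik1 in the duodenum as the highest mean. Per kilobase, Grik5, Grik3 and Grik4 were at 4.55, 0.755 and 1.89 CPM per kb in the duodenum, 3.68, 3.90 and 0.703 in the ileum and 4.03, 3.34 and 0.0296 in the colon, so that Grik4 was above Grik3 in the duodenum and below it in the other regions.

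The NMDA subunits were split between regions as well. Grin3a, a subunit that binds glycine in place of glutamate, had 9 counts in the duodenum, with 12 libraries at 0, and 0, 0.440 and 1.83 CPM (lowest, median and highest) in the ileum, but 4.81, 13.2 and 24.2 CPM in the colon. Its pooled colon level was 209-fold that of the duodenum (95% counting interval 110 to 458, adjusted p = 2.742e-20) and 21.6-fold that of the ileum (16.95 to 27.88, adjusted p = 6.757e-16). No colon library overlapped with the other regions.

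Grin2b, a glutamate-binding subunit, was a gene of the duodenum, where it had 0.867, 6.48 and 9.23 CPM, against 0, 0.430 and 1.85 CPM in the ileum and 0, 0.397 and 1.59 CPM in the colon. The log2 difference from the duodenum was -3.57 ± 0.40 in the ileum (adjusted p = 1.529e-10) and -3.61 ± 0.39 in the colon (adjusted p = 1.94e-11). Grin2d, also glutamate-binding, averaged 3.06 ± 1.49, 3.90 ± 2.03 and 5.49 ± 2.52 CPM from duodenum to colon and was higher in the colon than in the duodenum by 0.81 ± 0.24 (adjusted p = 0.003049), a difference that turned to -0.50 with the index code as a covariate. Grin1, the subunit that every NMDA channel contains, averaged 0.854 ± 0.541 CPM in the duodenum, 3.97 ± 1.88 CPM in the ileum and 3.82 ± 2.01 CPM in the colon, and differed from the duodenum by 2.20 ± 0.34 (adjusted p = 7.401e-07) and 2.14 ± 0.34 (adjusted p = 3.712e-07). Per kilobase, Grin1 was at 0.0880 CPM per kb in the duodenum, where Grin2b was at 0.227, and at 0.393 CPM per kb in the colon, where Grin3a was at 1.09 and Grin2d at 0.824. Exons of Grin1 overlap those of the antisense gene Grin1os, and exons of Grin2b and Grin2d overlap other non-coding genes on the opposite strand. The sources used here do not say whether counting used the strand, so that these counts are uncertain to that degree.

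Grid1, a delta receptor subunit that glutamate does not open, was lower in the ileum (2.98 ± 1.89 CPM) than in the duodenum (6.61 ± 2.55 CPM, log2 difference -1.16 ± 0.28, adjusted p = 0.001149) and than in the colon (7.74 ± 4.06 CPM, log2 difference of colon from ileum 1.39 ± 0.29, adjusted p = 5.782e-05). The former call was lost with the index code as a covariate (adjusted p = 0.2551) and within code D501 (adjusted p = 0.3746), and the latter within code D503 (0.99, adjusted p = 0.1382). Grin2c averaged 2.04, 2.41 and 1.40 CPM in duodenum, ileum and colon, and the colon was lower than the ileum by -0.69 ± 0.28 (adjusted p = 0.03606), a call lost with the index code as a covariate (adjusted p = 0.2653) and within code D503 (adjusted p = 0.731). With the mouse as a fixed block it was also called between colon and duodenum, lower in the colon (adjusted p = 0.02966). Gria2, the AMPA subunit that limits calcium entry, averaged 0.389, 0.324 and 1.06 CPM. Its calls in the colon over the duodenum (log2 difference 1.45 ± 0.61, adjusted p = 0.03653) and over the ileum (1.82 ± 0.67, adjusted p = 0.01572) were both lost with the mouse as a fixed block (adjusted p = 0.08623 and 0.06437) and with the index code as a covariate (0.34 and 0.12, adjusted p = 0.9193 and 0.9442). The AMPA subunits Gria1, Gria3 and Gria4 were among the genes removed by the filter, as was Grin3b.

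Among nicotinic subunits, Chrnb2 and Chrnb4 had the highest levels per kilobase in each region. Chrnb2 was at 20.3 ± 5.60 CPM in the duodenum, 21.2 ± 5.08 CPM in the ileum and 22.9 ± 6.78 CPM in the colon, with no contrast called (adjusted p from 0.2986 to 0.8077). Its usual partner in the brain, Chrna4, had at most 18 counts in a region. Exons of Chrnb2 overlap those of Adar on the opposite strand, which makes its count uncertain without knowledge of the strand setting. Chrnb4 averaged 5.83 ± 2.89 CPM in the duodenum, 10.1 ± 3.61 CPM in the ileum and 8.60 ± 2.21 CPM in the colon, and was higher than in the duodenum by 0.80 ± 0.19 in the ileum (adjusted p = 0.0007577) and by 0.58 ± 0.19 in the colon (adjusted p = 0.008271). Both calls were lost with the index code as a covariate (0.47, adjusted p = 0.5271, and 0.16, adjusted p = 0.8415), and the former also within code D501 (0.82, adjusted p = 0.2384).

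Alpha subunits that pair with Chrnb4 in autonomic ganglia followed another order. Chrna3 had 0, 0.745 and 1.99 CPM (lowest, median and highest) in the duodenum, 1.22, 3.21 and 8.22 CPM in the ileum and 0, 0.0770 and 0.757 CPM in the colon, and no colon library reached the ileum. The ileum was higher than the duodenum by 2.06 ± 0.35 (adjusted p = 6.83e-06), and the colon was lower than the ileum by -4.26 ± 0.61 (adjusted p = 1.554e-11) and than the duodenum by -2.19 ± 0.62 (adjusted p = 5.625e-05). With the index code as a covariate, the differences from the duodenum were 2.20 in the ileum (adjusted p = 0.06437) and -1.90 in the colon (adjusted p = 0.09931), no longer called, and within code D501 that of the ileum was called. Chrna5, an accessory subunit, averaged 0.492, 1.24 and 0.238 CPM, and its pooled ileum level was 2.59-fold that of the duodenum (95% counting interval 2.04 to 3.34, adjusted p = 0.01583) and 6.05-fold that of the colon (3.995 to 9.654, adjusted p = 1.6e-06). The former call was lost with the index code as a covariate (adjusted p = 0.2375) and without a filter. Chrna5, Chrna3 and Chrnb4 lie in a row on chromosome 9 with gaps of 2331 and 1591 bases.

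The muscle-type subunits Chrna1 and Chrnb1 averaged 0.908 and 2.07 CPM in the duodenum, 0.636 and 1.41 CPM in the ileum and 0.181 and 1.10 CPM in the colon. Colon and duodenum differed in both (adjusted p = 7.852e-05 for Chrna1 and 0.02803 for Chrnb1, the latter lost with the index code as a covariate, adjusted p = 0.07531), and colon and ileum in Chrna1 (adjusted p = 3.549e-04). The other 10 nicotinic genes, Chrna7 among them, reached at most 0.429 CPM (Chrna2 in the duodenum). Enteric neurons use Chrna3, Chrnb4 and Htr3a, and 8 markers of these neurons summed to 39.9 to 223 CPM in the duodenum, 62.2 to 163 CPM in the ileum and 42.4 to 130 CPM in the colon. Nearly all of this sum was Ret, while the defining markers Hand2, Vip and Nos1 averaged at most 0.320 CPM in any region. Chat and Elavl4 were highest in the colon, at 1.15 and 3.30 CPM, as Htr3a was. The part of neurons in these levels was not tested.

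Of the 19 GABA-A subunits, 8 were tested, and those with calls were not all highest in the same region. Gabra2, an alpha subunit that helps form the GABA binding site, was highest in the duodenum. It had 1.01, 4.10 and 9.03 CPM (lowest, median and highest) there, averaged 0.558 ± 0.575 CPM in the ileum and had no count in 11 colon libraries, with at most 0.680 CPM. It was lower in the ileum by -2.93 ± 0.45 (adjusted p = 8.995e-07) and in the colon by -5.14 ± 0.67 (adjusted p = 2.726e-11) than in the duodenum. Colon and ileum differed by -2.21 ± 0.70 (adjusted p = 0.001939). Without the libraries of mouse 27 this last difference was -1.49 and no longer called.

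Gabre, the epsilon subunit, was also highest in the duodenum, at 5.87 ± 3.37 CPM against 2.47 ± 2.32 CPM in the ileum (log2 difference -1.27 ± 0.29, adjusted p = 5e-04) and 1.79 ± 0.805 CPM in the colon (-1.67 ± 0.29, adjusted p = 3.901e-06). Both calls were lost with the index code as a covariate (adjusted p = 0.7135 and 0.6079), and the former also within code D501 (adjusted p = 0.1829). The beta subunit Gabrb2 was highest in the ileum. It averaged 0.791 ± 0.440, 1.87 ± 1.28 and 0.122 CPM in duodenum, ileum and colon, and in the colon was below the ileum by -3.81 ± 0.61 (adjusted p = 3.04e-08) and below the duodenum by -2.68 ± 0.61 (adjusted p = 2.904e-05), while ileum and duodenum differed by 1.13 ± 0.42 (adjusted p = 0.03081), a call lost with the index code as a covariate (0.74, adjusted p = 0.6533), within code D501 (0.82, adjusted p = 0.4723) and without a filter.

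Gabrq, the theta subunit, had 8 counts in the duodenum and 2 in the ileum, both in 1 library, against 0.576, 3.08 and 8.16 CPM (lowest, median and highest) in the colon, with no overlap. Its pooled colon level was 60.3-fold that of the duodenum (95% counting interval 30.6 to 140, adjusted p = 3.436e-13) and 182-fold that of the ileum (50.4 to 1504, adjusted p = 3.095e-13). Gabrp, the pi subunit known from epithelia of the reproductive tract, had 2, 16 and 87 counts in duodenum, ileum and colon, with a colon mean of 0.930 CPM, and was called in the colon against both other regions (adjusted p = 5.295e-06 for the duodenum and 0.002383 for the ileum), the former lost with the index code as a covariate (adjusted p = 1). Gabrd, the delta subunit, averaged 4.29, 3.80 and 3.74 CPM with no contrast called (adjusted p from 0.4957 to 0.9628). Gamma subunits are part of most GABA-A receptors of synapses. Gabrg1 and Gabrg3 did not pass the filter, and Gabrg3 in the colon, at 0.780 CPM, was the highest of the 11 GABA-A genes not tested. No glycine receptor subunit was tested either, the highest level being 0.278 CPM for Glrb in the colon.

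Many of these genes lie side by side in the genome, where 33 of the 79 fell into 13 clusters with gaps of at most 1 Mb. Neighbors did not always share a pattern. On chromosome X, Gabre (72255999 to 72274803, minus strand) was highest in the duodenum and Gabrq (72825178 to 72842602, plus strand) in the colon, with Gabra3 between them at a trace. On chromosome 9, Chrnb4 kept a mean of 8.60 CPM in the colon while the adjoining Chrna3 and Chrna5 were at 0.240 and 0.238 CPM. P2rx7 and P2rx4 were both highest in the colon.

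**Figure D3:**
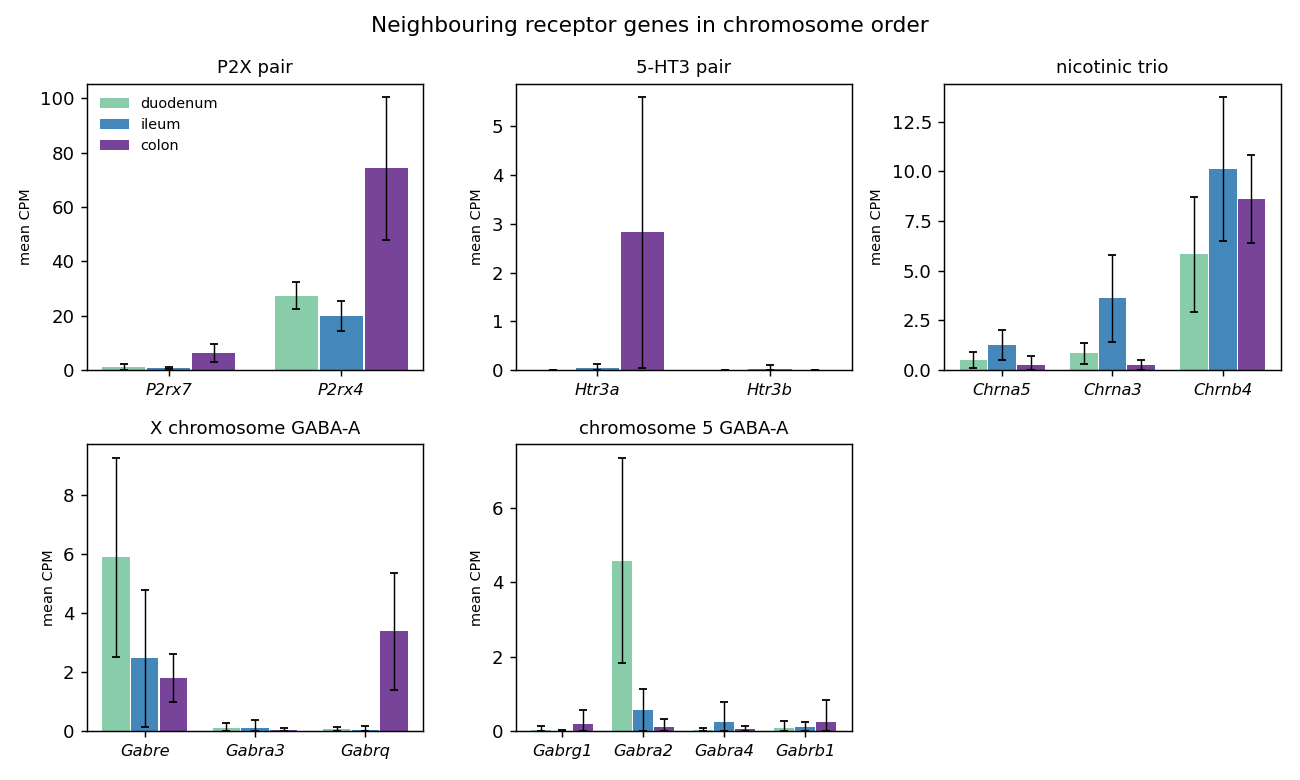
Mean level in CPM of neighboring receptor genes in the duodenum, ileum and colon, with 1 panel for each of 5 genomic clusters and error bars for the SD over 16 libraries, cut at 0. P2rx7 and P2rx4 are both highest in the colon, whereas Gabre is highest in the duodenum and Gabrq in the colon.

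Genes for making, storing and clearing the transmitters, and for assembling the receptors, were compared in colon versus duodenum, where 55% of all tested genes were called. Whether calls of these genes hold with the index code as a covariate is not reported here. Of 9 tested serotonin genes, 5 were called, 1 higher and 4 lower, a share near that of all genes. Maoa, which breaks down serotonin, was higher in the colon by 1.30 ± 0.24 (adjusted p = 1.82e-05), and the vesicular transporter Slc18a2 (37.1 ± 11.9 CPM in the duodenum, 1.41 ± 1.32 CPM in the colon) and the uptake transporter Slc6a4 (19.1 ± 7.70 and 9.17 ± 2.72 CPM) were lower by -4.69 ± 0.28 (adjusted p = 1.739e-19) and -1.07 ± 0.16 (adjusted p = 2.002e-07). Of 6 tested genes for GABA and glycine, 4 were higher and 1 lower in the colon. The isoforms of the enzyme that makes GABA moved in opposite directions, with Gad1 at 0.112 ± 0.189 CPM in the duodenum and 2.67 ± 2.22 CPM in the colon (log2 difference 4.38 ± 0.66, adjusted p = 1.151e-08) and Gad2 at 10.6 ± 4.07 and 1.74 ± 0.894 CPM (-2.68 ± 0.23, adjusted p = 8.333e-14). The glycine transporter Slc6a9 was higher in the colon by 2.25 ± 0.26 (adjusted p = 3.086e-10).

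Of 7 tested genes for glutamate, 2 were higher in the colon (Gls2, a glutaminase, by 1.12 ± 0.30, adjusted p = 0.001156, and Glul, glutamine synthetase, by 0.59 ± 0.09, adjusted p = 3.267e-07) and 3 lower, led by the uptake transporters Slc1a3 (-3.08 ± 0.22, adjusted p = 6.752e-17) and Slc1a2 (-2.66 ± 0.31, adjusted p = 2.769e-10). All 6 tested genes for acetylcholine were called, 2 higher and 4 lower. The choline transporter Slc5a7 (3.33 ± 1.12, adjusted p = 0.01171) and the muscarinic receptor Chrm1 (2.74 ± 0.18, adjusted p = 1.117e-17) were higher in the colon. Slc5a7 varied widely between libraries, at 1.08 ± 2.13 CPM in the duodenum and 9.6 ± 15.3 CPM in the colon. The muscarinic receptors Chrm4 (16.2 ± 3.70 CPM in the duodenum and 0.985 ± 0.954 CPM in the colon) and Chrm3 (10.5 ± 4.21 and 2.15 ± 1.20 CPM) were lower by -4.03 ± 0.28 (adjusted p = 4.212e-18) and -2.47 ± 0.22 (adjusted p = 3.701e-14).

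Of 11 tested genes for ATP release, ATP breakdown and P2Y receptors, 6 were higher and 4 lower in the colon. Slc17a9, which loads ATP into vesicles, rose from 1.06 ± 0.763 CPM in the duodenum to 25.2 ± 7.92 CPM in the colon (log2 difference 4.70 ± 0.26, adjusted p = 4.264e-21) and P2ry2 from 2.60 ± 2.60 to 8.33 ± 3.74 CPM (1.62 ± 0.28, adjusted p = 4.225e-06). The ectonucleotidases Entpd3 (45.6 ± 10.8 and 1.47 ± 1.21 CPM) and Nt5e (252 ± 76.2 and 67.5 ± 16 CPM) were lower by -4.98 ± 0.26 (adjusted p = 3.881e-21) and -1.88 ± 0.17 (adjusted p = 2.297e-12). Of 18 tested genes for receptor assembly and auxiliary subunits, 5 were higher and 6 lower, again a share near that of all genes. Tmem35a, a chaperone of nicotinic receptors, was at 0.0286 ± 0.0798 CPM in the duodenum and 4.21 ± 1.20 CPM in the colon (adjusted p = 2.107e-14), and Cacng4, an AMPA receptor auxiliary subunit, was higher by 3.15 ± 0.24 (adjusted p = 1.773e-15). Neto1, an auxiliary subunit of kainate receptors, was at 53.7 ± 13.7 CPM in the duodenum, 52.4 ± 15.96 CPM in the ileum and 2.49 ± 1.33 CPM in the colon (-4.41 ± 0.21 from duodenum to colon, adjusted p = 1.743e-22), and Shisa9, which modulates AMPA receptors, at 49.0 ± 17.3, 0.603 ± 0.643 and 0.243 ± 0.403 CPM (-7.82 ± 0.66, adjusted p = 5.503e-19).

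Marker genes followed the region labels, with the 3 markers of the duodenum at medians of 18670, 4892 and 23.0 CPM in duodenum, ileum and colon, and the 4 markers of the colon at 5.44, 74.1 and 542 CPM. The 9 enteroendocrine markers were all above 1 CPM in every region and summed to medians of 55330, 43240 and 46640 CPM. Nearly all of this sum was Chga and Chgb, and other members had lower means in the colon than in the duodenum, such as Scg2 (1092 and 31.6 CPM), Pcsk1 (934.9 and 113 CPM), Isl1 (112 and 10.5 CPM), Pax6 (156 and 49.5 CPM) and Neurod1 (660 and 255 CPM), which marks the sorted cells. Markers of other epithelial cells moved with region beside the receptors: 6 enterocyte markers summed to a median of 5469, 6048 and 273 CPM, 5 colonocyte markers to 52.3, 93.8 and 1912 CPM, and 5 goblet cell markers to 3393, 3547 and 7028 CPM. Their part in the receptor differences was not tested. The second index code in the library titles also followed region. D502 held 12 duodenum libraries, and D504 held 11 colon libraries and 1 ileum library. D503 held 8 ileum and 4 colon libraries, and D501 held 4 duodenum, 7 ileum and 1 colon libraries. Only D501 thus held both colon and duodenum libraries. Its colon library and the ileum library under D504 were those of S_al mouse 12, whose region labels disagree. The 4 duodenum libraries under D501 included that of S_wm mouse 27 and none of a VSG mouse, unlike the ileum libraries. Fits within a code had no term for surgery. Both kinds of fit thus separate code from region through few libraries. With the second index code as a covariate, 16 of the tested receptor genes were called between colon and ileum, 14 between colon and duodenum and 6 between ileum and duodenum. The 14 included Grik4, Grin3a, Gabrq, P2rx4, Gabra2, Htr4, Grik3, Htr1b, Grin2b, Grin1, Gabrb2, Chrna1 and P2rx7, and the 6 included Grik3, Grin2b, Grin1, Gabra2 and P2rx7, the last of which was not called without the covariate (adjusted p = 0.05084). Within code D503, 6 genes differed between colon and ileum (Grik4 by -6.05, Grin3a by 4.12, P2rx4 by 1.98, P2rx7 by 3.52, Htr4 by 1.71 and Chrna3 by -3.65), and within code D501, 4 differed between ileum and duodenum (among them Grik3 by 2.43, Grin1 by 2.33 and Chrna3 by 2.33). The share of all genes called with the covariate or within a code is not reported here. These counts therefore show nothing particular to the receptor genes.

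No receptor gene passed the threshold between surgery groups. Over the mean of the regions, 0 of 30 genes were called between VSG and S_al (0% of all tested genes), 0 between VSG and S_wm (0.245%) and 0 between S_wm and S_al (0.0529%), with edgeR. At an unadjusted p under 0.05 these contrasts held 4, 3 and 5 of the 30 genes, against 5.534%, 9.917% and 6.393% of all tested genes. The share of all tested genes called within the duodenum was 0%, 0.225% and 0% in the same order, within the ileum 0%, 0.0463% and 0%, and within the colon 0%, 0.0595% and 0.0132%, and again 0 receptor genes were called in each. Their numbers at an unadjusted p under 0.05 were 4, 0 and 2 in the duodenum, 4, 4 and 3 in the ileum and 4, 1 and 4 in the colon. The shares of all tested genes at that p were 2.446%, 8.713% and 6.545% in the duodenum. They were 6.162%, 6.38% and 7.854% in the ileum and 6.281%, 3.649% and 3.656% in the colon. The joint test of region by surgery called 0 receptor genes (0% of all genes), with 7 at an unadjusted p under 0.05, against 4.899% of all tested genes. DESeq2 and limma voom likewise called 0 in each surgery contrast. The lists of transmitter genes had 1 called gene lower (serotonin) and 1 higher (acetylcholine) in VSG than in S_wm mice over the mean of the regions, and 0 in the other mean contrasts.

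The precision of these contrasts is given by the 15 genes with a mean of at least 5 CPM in some region. Leaving out Grin3a, which had no count in the duodenum of S_al mice, their log2 differences between VSG and S_al mice over the mean of the regions ran from -0.80 (Grin2b) to 0.54 (P2rx7), with 95% bounds between -1.65 and 1.19 and a median SE of 0.237. Between VSG and S_wm they ran from -0.80 (Grin2b) to 0.77 (Grik4), with bounds between -1.63 and 2.02, and between S_wm and S_al from -1.40 (Grik4) to 0.80 (P2rx7), with bounds between -2.61 and 1.47. Grin3a averaged 14.2 ± 5.24 CPM in the colon of S_al mice (n = 5), 16.97 ± 6.40 CPM in S_wm mice (n = 5) and 9.53 ± 3.48 CPM in VSG mice (n = 6).

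**Figure D4:**
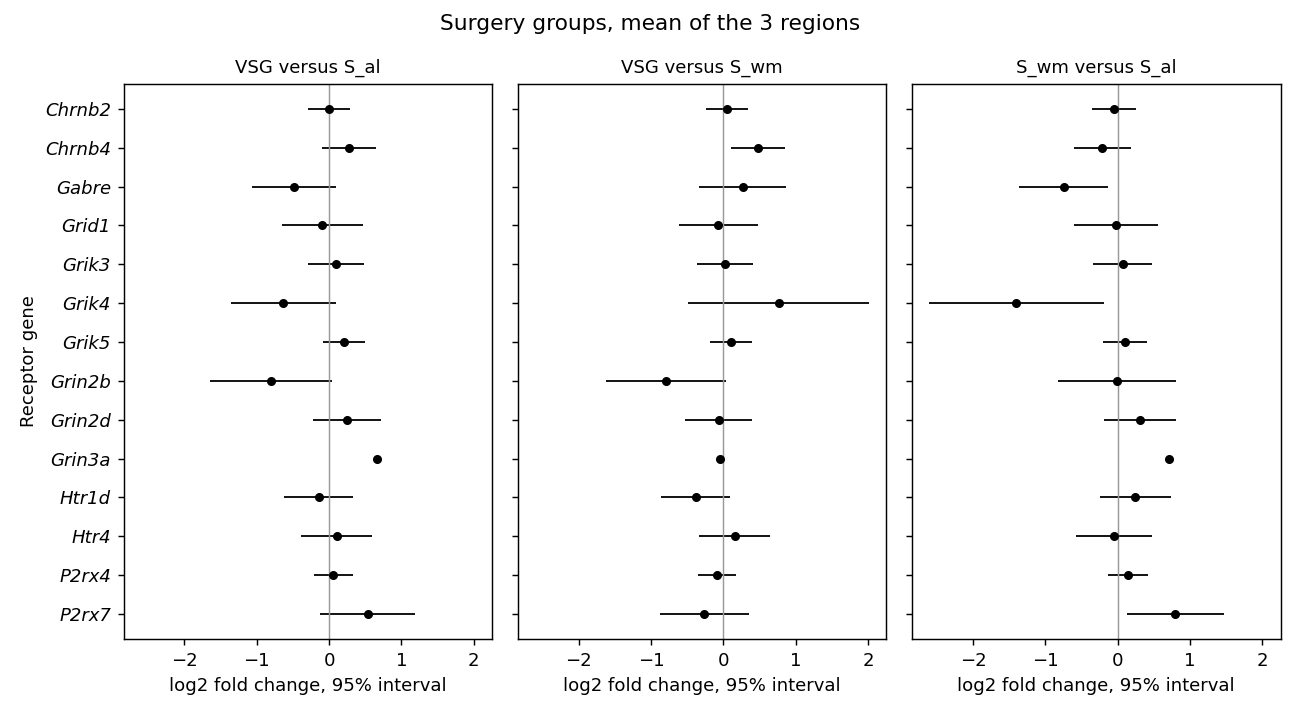
Log2 difference between surgery groups over the mean of the 3 regions, with 95% intervals, for 14 of the 15 receptor genes with a mean of at least 5 CPM in some region. No gene passed the adjusted threshold, and the point of Grin3a has no interval and depends on the prior count of the fit because 1 of its groups has 0 counts.

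Several of the lowest unadjusted p in the mean contrasts belonged to genes with few counts. Htr1b in the duodenum was at 1.64, 0, 0.0549, 0.595 and 0.608 CPM in the 5 S_al mice, at 0 in all 5 S_wm mice and at 0, 0, 0, 0.126, 0 and 0.101 CPM in the 6 VSG mice. In the colon it was at 3.53, 2.72, 5.90, 4.22 and 7.47 CPM in S_al mice, at 9.59, 1.86, 1.48, 3.45 and 2.88 CPM in S_wm mice and between 1.53 and 4.19 CPM in VSG mice. The groups overlapped in both regions, and the adjusted p was 0.1759 for VSG versus S_al and 0.4886 for S_wm versus S_al. Chrna5 in the colon was at 0.609, 1.36, 0, 1.34 and 0.122 CPM in S_al mice, had a count in 1 of 5 S_wm mice and in 0 of 6 VSG mice, and reached an adjusted p of 0.3987 for VSG versus S_al. Chrna1 in the duodenum averaged 1.64 ± 1.07 CPM in S_al mice (n = 5), 0.841 ± 0.414 CPM in S_wm mice (n = 5) and 0.351 ± 0.193 CPM in VSG mice (n = 6), with adjusted p = 0.5495 for VSG versus S_al and 0.6571 for S_wm versus S_al by edgeR.

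Between VSG and S_wm mice, the lowest p were those of Chrna3 (log2 difference -1.42 ± 0.59, adjusted p = 0.179) and Chrnb4 (0.48 ± 0.19, adjusted p = 0.3366). Chrna3 in the colon was at 0.757, 0.372, 0, 0.576 and 0.720 CPM in S_wm mice and had a count in 1 of 6 VSG mice, while in the ileum it averaged 4.38 ± 3.30 CPM in S_wm (n = 5) and 3.77 ± 1.80 CPM in VSG mice (n = 6). Chrnb4 averaged 5.07 ± 3.50 and 7.32 ± 2.69 CPM in the duodenum, 7.42 ± 1.38 and 11.6 ± 3.11 CPM in the ileum and 7.69 ± 1.31 and 9.41 ± 1.73 CPM in the colon of S_wm and VSG mice. Its mean was thus higher in VSG mice in all 3 regions without passing the threshold. Grik4 in the duodenum was at 19.6, 9.88, 10.2, 12.95 and 17.8 CPM in S_al mice, at 2.31, 5.11, 10.3, 16.5 and 11.3 CPM in S_wm mice and between 5.68 and 17.01 CPM in VSG mice. The S_wm groups were lower than S_al over the mean of the regions by -1.40 ± 0.60 (adjusted p = 0.4886), with overlapping libraries.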

How the data were processed

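RNA of sorted NeuroD1-positive cells was made into libraries with a stranded total RNA kit from 2 ng of RNA and sequenced. The authors aligned the reads to GRCm38 with STAR 2.5.1 and deposited counts per Ensembl gene, as whole numbers without normalization, in 1 table. Whether counting used the strand is not given in the sources used here. Of the 53465 genes, 53360 took symbols and coordinates from GENCODE M21 by their identifier, and the 79 receptor genes were found by symbol.

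Region and surgery group were taken from the sample labels, as were mouse numbers. The test was that of edgeR 4.0.16, run in R 4.3.3 (filterByExpr, TMM, 1 mean for each of the 9 groups of region and surgery, robust quasi-likelihood fit) with Benjamini-Hochberg adjustment over 15126 genes. The study's own model was DESeq2 with operation in interaction with region. Standard errors are Wald errors from the working weights and the quasi-dispersion, and none is given for genes with 0 counts in every library of a group, for which the ratio of pooled CPM is given with the 95% exact Poisson interval of the lower count alone, so that the counting error of the higher count is left out. Intervals and the floor of 3 counts cover counting error only. A 3-count floor is over all libraries of a region. Total counts per library were 4648651 to 17182463 (median 6713018), and the common biological coefficient of variation was 0.302. Replicates of a group differed by more than sampling noise (lowest chi-square per gene 8.78).

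The receptor genes, lists and markers were chosen with earlier results of these data known. Genes given with values were those with a mean of at least 5 CPM in a region, the 3 largest called differences per direction in each region contrast and the 3 lowest p in each mean surgery contrast. For the lists, the 2 largest called differences per direction between colon and duodenum were named. The other tested genes are given by family. Values of a few genes are not reported here, although these genes entered the counts and sums.

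Mouse numbers pair the libraries of an animal across regions. Over 46 such pairs the correlation of deviations from the group means had a median of 0.111 (from -0.0704 to 0.391), with 25 pairs over 0.1. Surgery groups hold different mice. Alternatives were DESeq2 1.42.0 and its size factors, no filter, a stricter filter (10 counts), the mouse as a fixed block or as a random block in limma 3.58.1 voom, the index code as a covariate, only the libraries compared, counts summed per mouse, and omission of each mouse, of the duodenum library of mouse 27 or of the libraries of mouse 12 from ileum and colon. Fits within an index code, and the fixed block for the interaction, were chosen after seeing the data. Tests were tried on simulated counts. Promoter sequences are those of RefSeq on GRCm38.p6. Human samples and the authors' comparisons were not used here.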

Additional observations from a re-analysis of the deposited data

Results flagged for a closer look

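In 84 groups of 5 or 6 libraries (15 receptor genes searched), 2 libraries lay far from the rest of their group by Dixon's ratio, where chance alone flags about 1 in 20 groups. Both were of Grik5, the kainate receptor subunit, in S_wm mouse 27. In the duodenum this mouse had 5.49 CPM against 23.4 to 29.5 CPM in the other S_wm mice, with a ratio of 0.743. In the colon it had 11.7 CPM against 21.8 to 24.8 CPM, with a ratio of 0.773. The duodenum library of this mouse was also the one with the lowest sum of enteroendocrine markers, at 11650 CPM, and the part of this in its Grik5 level was not tested.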

How the results depend on the processing

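The numbers of receptor genes called between ileum and duodenum, colon and duodenum, and colon and ileum (18, 25 and 18) were 20, 27 and 22 with DESeq2, 18, 25 and 18 with its size factors, 24, 30 and 26 without a filter, 16, 19 and 13 with the stricter filter and 17, 20 and 13 with only the libraries compared. Paired by mouse they were 17, 25 and 17 with the mouse as a fixed replicate block and 18, 25 and 18 with a random block, and, of the calls given with the results, those other than Gria2 and Grin2c did not change under the fixed block. Omission of each mouse gave 17 to 22, 23 to 27 and 15 to 21. With the index code as a covariate they were 6, 14 and 16, within code D501 4 (ileum and duodenum) and within code D503 6 (colon and ileum), where fewer libraries entered. The share of all genes called under each alternative is not reported here. With the index code as a covariate Grin2d in colon versus duodenum turned to -0.50, and 1 receptor gene, Htr1b, was called in the duodenum between S_wm and S_al mice. All other surgery contrasts and the interaction kept 0 calls under each alternative run. Over the 64 differences of named genes, 1704 alternative values were run, of which 1635 kept direction and call, 68 kept direction and lost the call and 1 changed sign. The 64 include surgery differences, none of which was called in the main fit. Genes with few counts had fewer alternative values. Gabrp had 21 for colon versus duodenum and 20 for colon versus ileum, against 27 and 28 for P2rx4. Calls that were lost when 1 mouse was omitted were those of Gabrb2 between ileum and duodenum (mice 18, 19 or 29, log2 difference 0.89 to 1.30 over all omissions), Gria2 between colon and duodenum (mice 13, 16, 19, 22 or 29, 1.26 to 1.74) and between colon and ileum (mice 19 or 29, 1.34 to 2.29), Chrnb1 between colon and duodenum (mice 11, 12, 27 or 31, -1.27 to -0.67), Grin2c between colon and ileum (9 of the 17 mice, -0.81 to -0.61) and Gabra2 between colon and ileum (mouse 27, -1.49). At floors of 0.5 and 2 CPM in place of 1 CPM, 25 and 17 genes were counted in the duodenum, 26 and 16 in the ileum and 25 and 17 in the colon. Depth limits the report most for the 49 genes not tested, and for Htr3a, Gabrq, Grin3a and Htr1b, whose counts in 1 or 2 regions were so few that only a counting interval of the ratio, wide at its upper end, can be given.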
